A study of Mus musculus with 4 samples.

Results

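The genes described here are the clustered replication-dependent histone genes of CT26 cells, a mouse colon carcinoma line. They were found by their symbols, as names of the HIST1H form and as the newer names H1F, H2AC, H2BC, H3C and H4C, without the entries marked as pseudogenes in the name. The letters matched 44 symbols; 1 marked pseudogene and H13, which is the symbol of a signal peptide peptidase gene, were left out. This gave 42 of the 21677 gene symbols analysed, and 42 of the 69 clustered histone genes of the GENCODE M21 annotation. The set was selected on the readout itself, since it was proposed after a higher level in iRhom1 KO cells had been seen in these same libraries. Differences between iRhom1 KO and Control cells are therefore given for these genes as a description, with no test.

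RNA was sequenced from 4 libraries, of which S17 and S19 came from Control CT26 cells and S18 and S20 from iRhom1 KO CT26 cells. The iRhom1 KO cells lack iRhom1 (gene Rhbdf1), an inactive rhomboid protease, after infection with a lentiviral CRISPR vector carrying a guide to Rhbdf1. They were grown from a single clone, so that the line and the genotype cannot be told apart. A vector line without a guide, also grown from a single clone, was made in the study, and the sources used here do not say whether the Control libraries came from it or from unmodified cells. The study kept CT26 cells in RPMI medium with fetal bovine serum and antibiotics, and the sources used here name no treatment of the sequenced cells. The paper calls its RNA-seq panels representative of independent experiments. It does not say whether the replicate libraries are those experiments or were grown as separate cultures. Errors and p-values therefore measure only the spread between these libraries. Values are FPKM, fragments per kilobase of transcript and per sequencing depth, so a level also depends on the annotated length of the transcript. The steps between the lowest values pointed to a depth of roughly 50400000 to 53200000 fragments per library. Rhbdf1 was listed at 0.538 and 0.890 FPKM in Control and at 0.0940 and 0.0584 FPKM in iRhom1 KO, but these values equal those of Apobec2 in 3 of the 4 libraries and are a weak check of the labels. Of the colon and epithelial markers, Krt18 (8.58 to 18.3 FPKM over the 4 libraries) and Krt20 (10.2 to 13.6 FPKM) were present, Vil1 and Cdx2 stayed under 1 FPKM, and the leukocyte marker Ptprc and the endothelial marker Pecam1 were near 0 in every library. Krt8 was listed at 0.0278 and 0 FPKM in Control and at 6.80 and 7.03 FPKM in iRhom1 KO, and the endothelial marker Vwf at 3.05 and 2.91 FPKM in Control and at 0.0409 and 0.0678 FPKM in iRhom1 KO. The summed FPKM of the 5 leukocyte markers was 1.89 to 2.10 in Control and 1.47 to 2.28 in iRhom1 KO, that of the 3 endothelial markers 2.93 to 3.07 and 0.0490 to 0.0786, that of the 5 fibroblast markers 39.0 to 42.5 and 52.4 to 57.6, and that of the 5 colon and epithelial markers 18.8 to 19.9 and 36.8 to 38.0. The part of these markers in the values below was not tested.

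Histones are the proteins that DNA is wrapped around. The core particle holds pairs of H2A, H2B, H3 and H4, and the linker histone H1 binds the DNA where it enters and leaves the particle. When a cell copies its DNA in S phase it needs a second set of these proteins, and the replication-dependent genes, which sit together in clusters in many near-identical copies, supply it. Their transcription is driven at histone locus bodies by Npat after phosphorylation by cyclin E and Cdk2. Their mRNAs have no poly(A) tail and end instead in a stem-loop, which is bound by Slbp and cut with the help of the U7 snRNP. In bulk RNA, more cells in S phase and more histone RNA per cell cannot be told apart. How the libraries were selected for mRNA is not given in the sources used here, and a selection for poly(A) tails would keep these transcripts only in part.

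The stem-loop is the feature that sets these mRNAs apart from nearly all others, so 4 examples are shown, which cover the 3 stems found in the members and, for H2AC20, a second loop, as DNA letters of the annotated GENCODE M21 transcripts, 5′ to 3′, with the paired bases in capitals. The genes lie at chr13:23571396-23572013 on the plus strand (H2BC8), chr3:96220361-96220880 on the minus strand (H2AC20), chr13:23531050-23531519 on the plus strand (H4C8) and chr13:21735064-21735837 on the plus strand (H4C11), all in GRCm38.
H2BC8: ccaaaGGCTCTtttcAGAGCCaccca
H2AC20: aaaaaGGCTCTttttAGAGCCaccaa
H4C8: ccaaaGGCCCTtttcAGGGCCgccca
H4C11: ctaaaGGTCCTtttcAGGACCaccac

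A stem of 6 paired bases around a loop of 4 was found in 23 of the 42 members, starting 21 to 58 bases after the stop codon. The stem read GGCTCT in 18 of them, which were all of the H1, H2A, H2B and H3 members with a stem, while the 5 H4 members read GGCCCT (4) or GGTCCT (1). The loop was tttc in 17 and ttta or tttt in 6. In 15 of the other members fewer than 50 annotated bases followed the stop codon, 2 had no annotated coding sequence, and HIST1H2BQ and H4C1 had longer annotated ends in which these letters were not found.

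The coding sequences differ more than the proteins. The 7 H4 members have 7 different coding sequences and 1 protein, and the 8 H3 members have 8 coding sequences and 2 proteins, with H3C1, H3C10 and H3C11 sharing one and the other 5 the other. The 6 H2B members encode 5 proteins, the 15 coding H2A members 8, and the 4 H1 members 4. Many members are so alike that short reads can be assigned to the wrong copy. In 21 of the 42 members, at least 50% of the stretches of 50 bases of their transcripts also occur in another gene, with 100% in H2AC19 and 97.3% in HIST1H2BQ. The FPKM of single copies are uncertain to that extent. The sum over a class is affected where reads are shared with genes outside it or with genes of the class that are not listed.

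Levels differed widely between the members. The plot of levels by library gives all 42 members. H4C8, one of the H4 genes of the Hist1 cluster, had the highest mean level, at 532 FPKM in Control S17, 542 in Control S19, 565 in iRhom1 KO S18 and 566 in iRhom1 KO S20. H1F6 (formerly Hist1h1t) and H2AC1 (Hist1h2aa), which are known as testis types, were the only members below the 1 FPKM mean in a group that was required for the fit across genes, which left 40. H1F1, the linker histone H1.1, was the member just above that level, with 1.41 and 1.73 FPKM in Control and 2.59 and 3.89 in iRhom1 KO, on an estimated 56 fragments or more per library. H1F6 was the member just below, at 0.504 and 0.197 FPKM in Control and 0.176 and 0.119 in iRhom1 KO, on an estimated 6 fragments in the lowest library. H2AC1 stood at 0.194 and 0.289 FPKM in Control and 0.298 and 0.151 in iRhom1 KO.

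**Figure D1:**
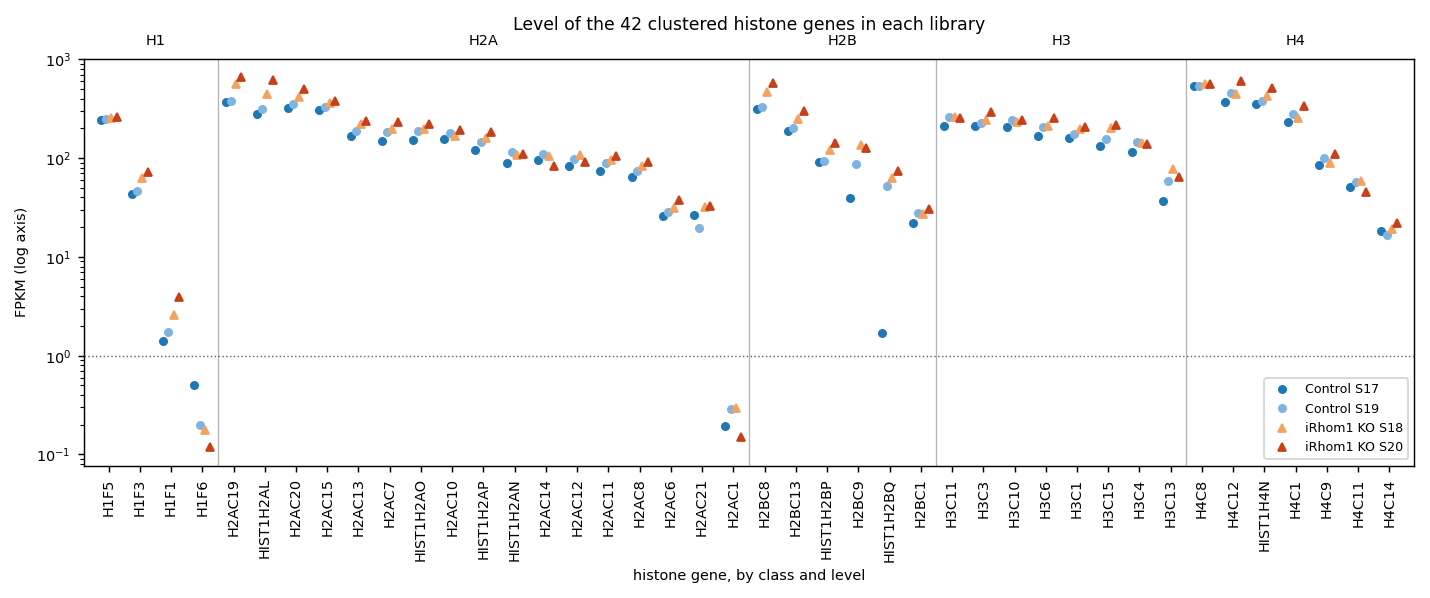
FPKM (log axis) of each of the 42 clustered histone genes in the 2 Control libraries (circles) and the 2 iRhom1 KO libraries (triangles), grouped by histone class and ordered by mean level, with a dotted line at 1 FPKM. Most members lie between 16.8 and 659 FPKM, the iRhom1 KO triangles tend to lie above the Control circles, and the lowest Control point of HIST1H2BQ (1.69 FPKM in S17) stands far from its other 3.

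Summed over the 42 members, the level was 6307 FPKM in Control S17, 7199.8 in Control S19, 8108 in iRhom1 KO S18 and 9248 in iRhom1 KO S20. Both iRhom1 KO libraries lay above both Control libraries, and the mean was 6753 ± 631 FPKM in Control and 8678 ± 806 in iRhom1 KO (SD, n = 2 each), a ratio of 1.29. H2A genes made up 39.1% of the Control sum, H4 25.8%, H3 20.1%, H2B 10.8% and H1 4.32%. Only 6 of 18 annotated H2B genes were listed, against 17 of 20 H2A, 8 of 12 H3, 7 of 13 H4 and 4 of 6 H1. The shares and the ratios of the classes therefore describe the listed genes and not the whole classes. They also depend on annotated transcript length. H1F3 has 7425 annotated bases and an estimated 17253 fragments or more per library, against 743 bases and 9526 fragments for H1F5. The ratio of the summed levels was 1.59 for H2B, 1.34 for H2A, 1.20 for H3, 1.17 for H4 and 1.13 for H1. No test of a difference between classes was made.

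**Figure D2:**
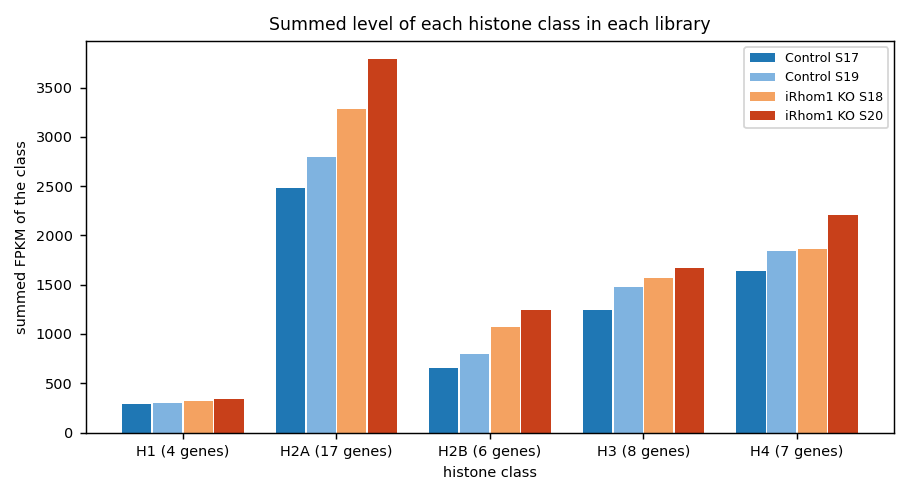
Summed FPKM of the members of each histone class, with 1 bar per library and no error bars. In each of the 5 classes both iRhom1 KO bars are higher than both Control bars, from 1069 and 1247 against 656 and 797 FPKM in H2B to 321 and 337 against 287 and 297 FPKM in H1.

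On the scale of log2(FPKM + 0.5), 38 of the 40 members above the level for the fit had a higher mean in iRhom1 KO, against 38.9% of all 10271 genes in the fit. The median difference (iRhom1 KO minus Control) was 0.33 over these 40 members, 0.31 over all 42 as the ratio of group means, and -0.10 over all genes. The limma fit across all genes called 9 members higher in iRhom1 KO and none lower at an adjusted p under 0.05 (also none lower at an unadjusted p under 0.05); this rule called 10.7% of all genes higher and 21.9% lower, and since the members were selected on this contrast nothing is read from their count. The 9 were H2AC13, H2AC19, HIST1H2AL, H2BC8, H2BC13, HIST1H2BP, H3C15, H1F3 and H1F1. Both iRhom1 KO libraries lay above both Control libraries in 28 of the 40 and below them in none, beside 25.9% and 46.1% of all genes. Trimmed mean scaling, which sets the median of all genes to about 0, raised the share of higher genes among all calls from 32.7% to 50.9%, the median of the members to 0.43 and the members called to 14. The number called also depended on the libraries. It was 16 without Control S19, 8 without Control S17, 9 without iRhom1 KO S18 and 4 without iRhom1 KO S20.

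**Figure D3:**
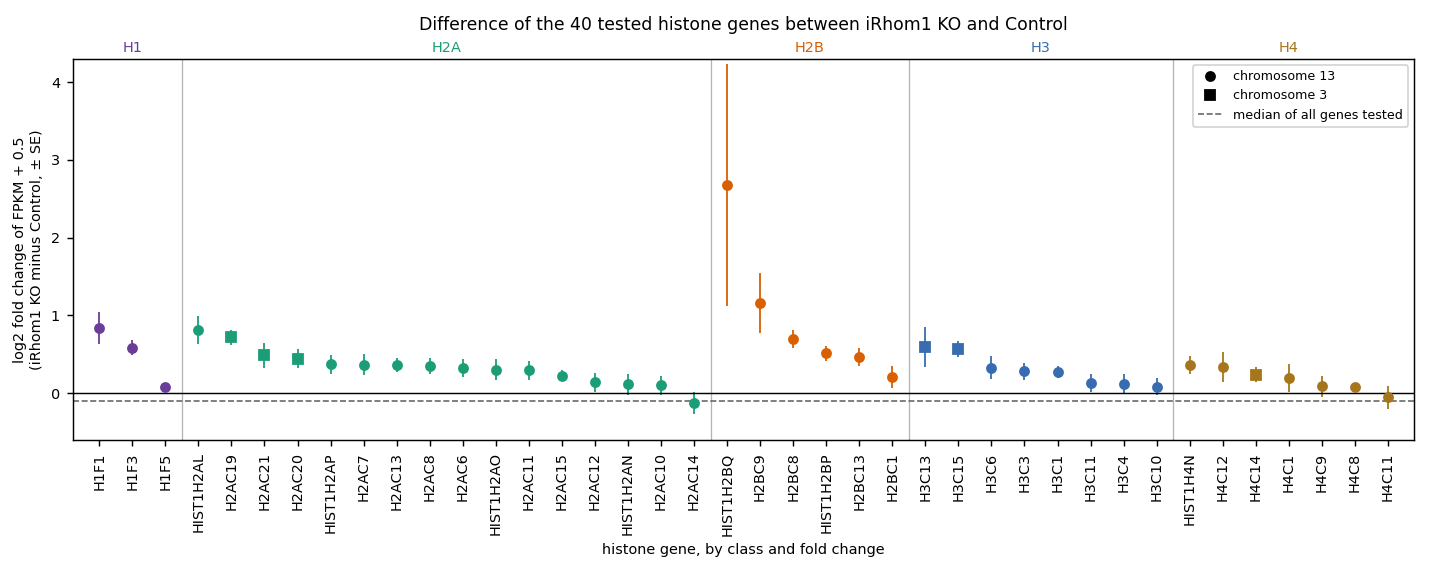
Log2 difference of FPKM + 0.5 (iRhom1 KO minus Control, bars ± SE from limma) of the 40 members in the fit, by class, with circles for chromosome 13 and squares for chromosome 3 and a dashed line at the median of all genes (-0.10). All but H2AC14 and H4C11 lie above 0, most between 0.07 and 0.84, and HIST1H2BQ has by far the widest bar (SE 1.56).

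Linker histones had the smallest summed FPKM of the listed classes, a sum that also depends on annotated length. H1F5, the histone H1.5, had the highest FPKM of them, at 241 and 249 in Control and 256 and 260.1 in iRhom1 KO. That rank depends on annotated length, since the transcript of H1F3 has 7425 annotated bases and that of H1F5 743. The difference of H1F5, 0.07 ± 0.06 (log2, SE), was among the 5 lowest of the members in the fit, although the groups did not overlap. H1F3, which is H1.3, was at 43.7 and 46.2 FPKM in Control and 62.6 and 72.9 in iRhom1 KO, a difference of 0.58 ± 0.10. H1F1 had a larger one, 0.84 ± 0.20, at the low level given above, where the added 0.5 makes a log2 difference smaller than that of the FPKM themselves (2.06-fold between means). The 3 expressed linker genes were thus higher in both iRhom1 KO libraries than in both Control libraries, beside 25.9% of all genes. H1F6, below the level for the fit, was lower in both (log2 ratio of means -0.39).

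Among the H2A genes the highest level belonged to H2AC19 (Hist2h2aa2), one of the few members on chromosome 3. It was at 367 and 376 FPKM in Control and 567 and 659 FPKM in iRhom1 KO, a difference of 0.72 ± 0.09, and both iRhom1 KO libraries were well clear of both Control libraries. HIST1H2AL had a like pattern, at 281 and 317 FPKM in Control and 443 and 619.6 FPKM in iRhom1 KO, a difference of 0.81 ± 0.18. HIST1H2AL is annotated as a processed pseudogene at chr13:51202727-51203065, away from either cluster. Of its stretches of 50 bases, 65.5% also occur in Gm20634, a gene model that holds the whole H2AC19 transcript, so the 2 rows may share reads and are uncertain as separate measurements.

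H2AC20 (Hist2h2ac), next in level, was at 319 and 354 FPKM in Control and 412 and 506 in iRhom1 KO, a difference of 0.44 ± 0.13. H2AC15 was at 307 and 328 FPKM in Control and 358 and 381 in iRhom1 KO, a smaller difference of 0.22 ± 0.07. Both were free of overlap between the groups. H2AC14, annotated as an unprocessed pseudogene, was the lowest of the 40 members in the fit by difference, at -0.13 ± 0.14, and its 96.9 and 109 FPKM in Control enclosed 1 of the iRhom1 KO values of 106 and 83.1. H2AC21, a low member of the chromosome 3 cluster, was at 26.9 and 19.8 FPKM in Control and 32.0 and 33.0 FPKM in iRhom1 KO (0.49 ± 0.16). Over the 16 H2A members in the fit the median difference was 0.34. Of them 15 were above 0 and 12 higher without overlap, beside 38.9% and 25.9% of all genes. The members were selected for being higher, so nothing is read from these counts.

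H2B genes had a median difference of 0.60 over 6 members, but 2 of them rest on unlike Control libraries, and without HIST1H2BQ the median was 0.51, below the 0.58 of the 3 H1 members in the fit. HIST1H2BQ was at 1.69 FPKM in Control S17 and at 52.8 in Control S19, and at 63.1 and 74.5 in iRhom1 KO, so that its difference of 2.68 ± 1.56 comes mostly from 1 Control library. H2BC9 was at 39.8 FPKM in Control S17, 86.5 in Control S19, and 137 and 126 in iRhom1 KO, a difference of 1.16 ± 0.38. Without these 2 genes the median of the other 38 members was 0.31. H2BC8, the listed H2B gene with the highest mean FPKM, was at 311 and 333 FPKM in Control and 473 and 574 FPKM in iRhom1 KO, a difference of 0.69 ± 0.12. H2BC13 followed at 189.6 and 203 FPKM in Control and 247 and 298 in iRhom1 KO (0.47 ± 0.11), and HIST1H2BP at 91.7 and 93.9 FPKM in Control and 122 and 144 in iRhom1 KO (0.51 ± 0.10). In these 3 the Control libraries were close together and both iRhom1 KO libraries were higher. H2BC1, a testis type, overlapped between the groups, with 22.0 and 27.8 FPKM listed in Control and 27.0 and 30.6 FPKM in iRhom1 KO. Of its stretches of 50 bases, 38.2% also occur in HIST1H2BQ, so its level may include reads of other copies.

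H3 genes differed less. H3C11, with the highest mean FPKM of them, was at 214 and 260.5 FPKM in Control and 264 and 254 FPKM in iRhom1 KO, and the groups overlapped. H3C3 was at 209.9 and 227 FPKM in Control and 244 and 290.2 FPKM in iRhom1 KO, without overlap and with a difference of 0.28 ± 0.11. H3C10, at 205 and 244 FPKM against 231 and 242 FPKM, overlapped (0.08 ± 0.10), and H3C6, at 166 and 206 FPKM against 212 and 255 FPKM, did not (0.33 ± 0.15). The 3 members that share one protein (H3C1, H3C10 and H3C11) had differences of 0.08 to 0.27, 1 of them without overlap. The 5 members of the other protein had differences of 0.12 to 0.60, 4 of them without overlap, and the highest 2 of these, H3C13 and H3C15, are the H3 genes on chromosome 3. Of all genes, 25.9% were higher without overlap, and nothing is read from the counts of members. H3C15 was at 131 and 155 FPKM in Control and 204 and 219 FPKM in iRhom1 KO, a difference of 0.56 ± 0.10. H3C13 was at 36.5 and 59.0 FPKM in Control and 77.2 and 64.2 FPKM in iRhom1 KO, with a wider error of 0.60 ± 0.26.

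H4 genes, which all encode the same protein, had the lowest median difference of the core classes, 0.19 over 7 members. None was called, beside 10.7% of all genes called higher, and nothing is read from this. For H4C8, whose values are given above, the 4 libraries lay within a narrow range and the difference was 0.07 ± 0.06, and -0.01 after quantile normalization. H4C12 was at 369.8 and 458 FPKM in Control and 446 and 606 FPKM in iRhom1 KO, with overlap (0.34 ± 0.19). HIST1H4N, at 352 and 381 FPKM in Control and 429.9 and 518 FPKM in iRhom1 KO, did not overlap (0.37 ± 0.11). H4C1 overlapped at 235 and 282 FPKM against 253 and 341 FPKM (0.19 ± 0.18), and H4C11, at 50.6 and 57.5 FPKM against 58.9 and 45.8 FPKM, was the only coding member in the fit with a value under 0 (-0.05 ± 0.15). H4C14, the H4 gene on chromosome 3, was a low member at 18.3 and 16.8 FPKM in Control and 19.3 and 22.3 FPKM in iRhom1 KO (0.24 ± 0.10).

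Apart from HIST1H2AL, the members lie in 2 clusters. Hist1, on chromosome 13, falls into stretches at chr13:21715763-21833507 (15 members, median difference 0.30), chr13:22035164-22042944 (3 members, 0.14) and chr13:23531050-23934851 (17 members, 15 of them in the fit, 0.32). Hist2, on chromosome 3 at chr3:96219865-96269141, holds H2AC19, H2AC20, H2AC21, H3C13, H3C15 and H4C14, with a median of 0.52. All 6 Hist2 members were higher in both iRhom1 KO libraries than in both Control libraries, beside 25.9% of all genes. Their summed level went from 940.0 ± 57.3 to 1407 ± 136 FPKM (SD, n = 2), a ratio of 1.50. H2AC19, H3C13 and H3C15 share 100%, 79.7% and 63.5% of their stretches of 50 bases with Gm20634. They are therefore uncertain as separate measurements, and nothing is read from the count. Hist1 members outnumbered those of Hist2 and spread from -0.13 to 2.68, and the difference between the clusters was not tested.

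The medians of the other genes around the clusters were negative. Over the 419 other genes of chromosome 13 in the fit the median difference was -0.38, with 194 called lower and 17 higher. The 537 of chromosome 3 had a median of -0.03, with 80 lower and 76 higher. Of all genes in the fit, 21.9% were called lower and 10.7% higher. Low medians were not particular to chromosome 13, since chromosomes 17 (-0.37), 15 (-0.32) and 5 (-0.23) had them too. The remaining chromosomes lay between -0.10 and -0.03, and the cause of these shifts was not tested. All 33 Hist1 members in the fit lay above the median of their chromosome, and so did the 6 Hist2 members. Since the members were selected for being higher in these libraries, nothing is read from this count. Between 21 and 24.5 Mb of chromosome 13, 17 other genes were in the fit, with a median of -0.36. Of these, Gm19658, Gm44466 and Gm44486 lie inside histone genes, with differences of -1.88 ± 0.96, -0.03 ± 1.16 and 2.22 ± 1.68. H2ac5-ps (0.33 ± 0.11) is a histone pseudogene, so the set is not free of histone sequence. Trim27, Ak157302, Abt1 and Hfe were called lower there and Carmil1 higher, all named after their values were seen. Hfe, an iron regulator whose gene sits among the histone genes, went from 2.40 to 1.27 FPKM (difference -0.71 ± 0.09, adjusted p = 0.0107 by limma). Between 95.5 and 97 Mb of chromosome 3 the median of 41 other genes was -0.31, with 8 called lower and 3 higher. They include Gm20628 (0.45 ± 0.11), which spans H3C13 and was called higher, and Gm20632 (0.00 ± 0.13), which spans H2AC19. The U1 snRNA genes Rnu1b1, Rnu1b2 and Rnu1b6 among them had wide SE of 0.50, 0.58 and 0.45. The part of such genes in either median was not tested. Taken relative to the other genes of its chromosome, the median member difference was 0.66, which takes in the low median of chromosome 13.

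Promoters of the members share motifs that are known from histone genes. RefSeq gives a start site in GRCm38.p6 for 38 of the 42 members, and the 250 bases before it were searched on both strands. CCAAT, the letters bound by NF-Y, were present in 32 of 38 (84.2%) against 33.9% of all 32851 promoters, and in only 1 of the 6 H4 promoters. TATAA was present in 23 (60.5%) against 22.8%, and ATTTGCAT, the octamer bound by Oct1, in 7 (18.4%) against 1.60%. The octamer was found in 5 H2A and 2 H2B promoters and in no other class. Both H2B octamers (H2BC1 and H2BC8) are the same sites as those of H2AC1 and H2AC8, whose windows overlap theirs on the other strand. TTTGGCGC or TTTCGCGC, which are E2F letters, occurred in 4 (10.5%) against 0.654%. The E2F letters of HIST1H2AN and HIST1H2BP are likewise 1 site in overlapping windows. A match says only that these letters are present, and members of one class resemble each other in sequence. Sites shared by overlapping H2A and H2B windows are counted once for each member, so the members are not independent promoters.

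The promoters of 3 members are printed 5′ to 3′ along the gene, with every match to these motifs, on either strand, in capitals. HIST1H2BQ (chr13:21810200-21810449, minus strand) had the largest difference between the groups and H4C8 (chr13:23530794-23531043, plus strand) the highest level. H2BC8 (chr13:23571150-23571399, plus strand), chosen after its values were seen, carries an octamer and a TATAA, which begin 59 and 43 bases before the start site. For H2AC14, the member in the fit with the lowest difference, none is shown.
HIST1H2BQ: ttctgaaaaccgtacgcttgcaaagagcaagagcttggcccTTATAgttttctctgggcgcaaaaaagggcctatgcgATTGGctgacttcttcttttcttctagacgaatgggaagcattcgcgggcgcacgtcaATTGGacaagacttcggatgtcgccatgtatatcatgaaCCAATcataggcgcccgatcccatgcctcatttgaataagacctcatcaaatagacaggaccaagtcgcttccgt
H4C8: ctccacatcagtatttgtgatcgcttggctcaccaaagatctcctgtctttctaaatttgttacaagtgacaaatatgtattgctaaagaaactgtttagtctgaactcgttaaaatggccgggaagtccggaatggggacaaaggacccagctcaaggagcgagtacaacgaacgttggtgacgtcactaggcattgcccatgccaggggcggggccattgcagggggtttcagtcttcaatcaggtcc
H2BC8: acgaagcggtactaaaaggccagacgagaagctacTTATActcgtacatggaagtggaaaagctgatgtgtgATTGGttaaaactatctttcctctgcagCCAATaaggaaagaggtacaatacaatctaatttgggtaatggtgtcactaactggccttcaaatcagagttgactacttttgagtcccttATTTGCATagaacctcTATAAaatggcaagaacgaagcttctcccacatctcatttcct

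The promoter of H4C8 held none of the motifs, while the HIST1H2BQ promoter held 3 CCAAT and 1 TATAA, the latter 209 bases before the start. H2AC19, high in both groups, had 1 CCAAT and neither TATAA nor the octamer.

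The 2 libraries of each group also differed from each other, in the same direction for most members. Of the 40 members in the fit, 38 were higher in Control S19 than in Control S17 and 33 were higher in iRhom1 KO S20 than in iRhom1 KO S18. The median log2 difference was 0.21 between the Control libraries and 0.18 between the iRhom1 KO libraries, and 0.13 between iRhom1 KO S18 and Control S19, its nearest Control library. In 24 of the 40 the libraries stood in the order S17, S19, S18, S20, and S17 was the lowest in 36. Over all genes the medians were 0.00 for S19 minus S17 and -0.06 for S20 minus S18, and S17 was the lowest library in 20.1% of genes. Other RNAs without a poly(A) tail also differed between the Control libraries. Of 21 such RNAs, 20 were higher in S19 than in S17, with a median difference of 0.60. Between the groups their median was -0.17. Scarna13, a small Cajal body RNA, was called higher (367 against 460.2 FPKM, adjusted p = 0.0277 by limma). Rnu12, the U12 spliceosomal RNA, was called lower (9.62 against 5.90 FPKM, adjusted p = 0.0362 by limma). Of all genes, 10.7% were called higher and 21.9% lower. Rn7sk, the most abundant of them, was at 38656 and 40490 FPKM in Control and 40890 and 48342 FPKM in iRhom1 KO. The part of these differences between libraries in the values of the histone genes was not tested.

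**Figure D4:**
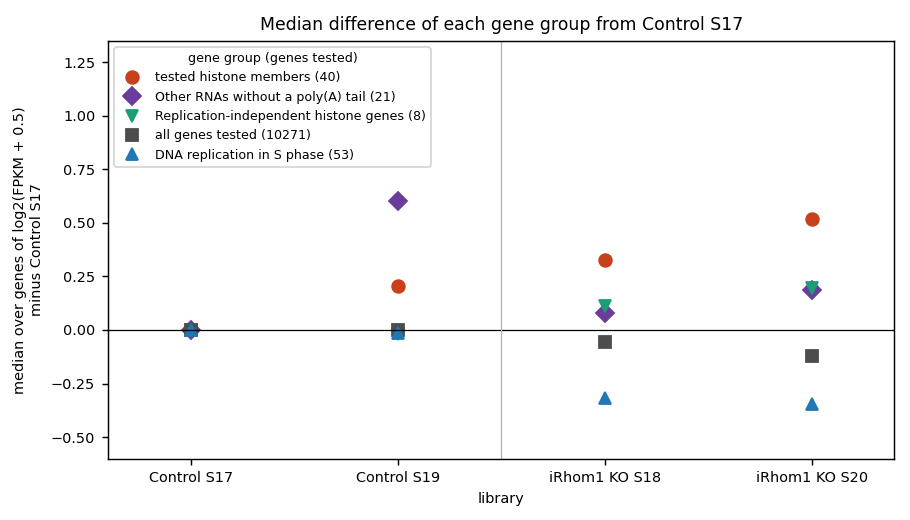
Median over genes of log2(FPKM + 0.5) minus the value in Control S17, for each library, with 1 symbol per gene group and the number of genes in the legend; S17 is 0 by construction. The histone genes stand at 0.21 in Control S19, 0.33 in iRhom1 KO S18 and 0.52 in iRhom1 KO S20, and the other RNAs without a poly(A) tail at 0.60 in Control S19, above either iRhom1 KO library.

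Histone genes outside the clusters supply variants, and most of them are not tied to S phase and give polyadenylated mRNAs, although H2ax also makes a stem-loop mRNA. Of 11 such genes, 8 were in the fit, 2 were called higher and 1 lower, with a median of 0.13. Of all genes, 10.7% were called higher and 21.9% lower. H1f0, the linker histone H1.0 of slowly dividing and differentiated cells, was at 86.7 and 87.3 FPKM in Control and 154 and 157 FPKM in iRhom1 KO. It rose by 0.83 ± 0.06 (log2, SE; adjusted p = 0.00486 by limma). H3f3b, 1 of the 2 genes of H3.3, rose from 105 ± 7.45 to 134 ± 4.12 FPKM (SD, n = 2; adjusted p = 0.0321 by limma), a call that was lost without S19, S18 or S20. H3f3a, the other, was at 47.4 ± 8.40 and 47.1 ± 4.93 FPKM. MacroH2A1, a large H2A variant of silent chromatin, fell from 14.0 ± 0.750 to 10.2 ± 0.319 FPKM (adjusted p = 0.0181 by limma), and its call was lost without the same libraries.

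The called variants lie on chromosomes 15 (H1f0), 11 (H3f3b) and 13 (MacroH2A1). The non-member genes of these chromosomes had medians of -0.32, -0.08 and -0.38. The part of the chromosome in the differences of these variants was not tested. The other variants did not pass the threshold. H2ax, which marks DNA breaks when phosphorylated, was at 72.9 and 81.2 FPKM in Control and 89.0 and 97.2 FPKM in iRhom1 KO (0.27 ± 0.09, adjusted p = 0.0778 by limma). H2az1 was at 163 and 158 FPKM against 139.7 and 235 FPKM, with 1 iRhom1 KO library below and 1 above Control. H2az2 (10.7 and 11.3 FPKM as group means) and Cenpa, the H3 variant of centromeres (7.22 and 7.52 FPKM), differed by 0.08 and 0.06 on the log2 scale.

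Of the genes that transcribe histone genes and process their mRNAs, 30 were in the fit, 6 were called lower and none higher, with a median of -0.13 beside -0.10 for all genes, and with 21.9% of all genes called lower and 10.7% higher. At an unadjusted p under 0.05 limma had 8 lower and 0 higher. Slbp, which binds the stem-loop, was at 13.4 and 14.2 FPKM in Control and 10.8 in both iRhom1 KO libraries. It fell by 0.34 (SE 0.07, adjusted p = 0.0248 by limma), a call that was lost when any 1 library was left out and under trimmed mean scaling (-0.24). Ccne1, the cyclin E1 that drives cells into replication, was 38.2 ± 0.728 FPKM in Control and fell to 18.4 ± 0.659 in iRhom1 KO (SD, n = 2; adjusted p = 0.00423 by limma). Srrt, a cap-binding partner, fell from 28.9 to 20.6 FPKM (adjusted p = 0.00992 by limma), and Cpsf1, a subunit of the cleavage complex, from 9.11 to 6.37 FPKM (adjusted p = 0.0191 by limma), the latter call being lost without S19 or S20.

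Slbp and Srrt lie on chromosome 5, Cpsf1 on chromosome 15 and Ccne1 on chromosome 7. The non-member genes of these chromosomes had medians of -0.23, -0.32 and -0.05. The part of the chromosome in these falls was not tested. Npat was at 10.0 and 9.53 FPKM in Control and 8.77 and 8.68 FPKM in iRhom1 KO, and did not pass the threshold (adjusted p = 0.138 by limma). Casp8ap2, a component of histone locus bodies, was at 11.8 and 9.45 FPKM as group means, Lsm11 of the U7 snRNP at 1.79 and 1.72, and its partner Lsm10 at 10.4 and 4.91 FPKM in Control and 10.7 and 5.63 FPKM in iRhom1 KO. Zfp473, which also acts in histone mRNA processing, was under the level for the fit, at 0.118 and 0.175 FPKM. Without Control S17 3 genes of this list were called lower, and without iRhom1 KO S20 2.

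Histone chaperones carry new histones to DNA. Of 25 chaperone and histone acetylation genes in the fit, 8 were called lower and none higher by limma (10 and 0 at an unadjusted p under 0.05), with a median of -0.18, beside 21.9% and 10.7% of all genes. Chaf1a, the large subunit of the CAF-1 complex that places H3 and H4 on newly copied DNA, fell from 10.6 ± 0.0163 to 6.12 ± 0.126 FPKM (SD, n = 2; adjusted p = 0.00574 by limma). Its partner Chaf1b fell from 7.55 to 5.11 FPKM (adjusted p = 0.0195), Ubn1 of the H3.3 chaperone complex from 4.38 to 2.88 FPKM (adjusted p = 0.0117), and Dnajc9, a chaperone of H3 and H4, from 37.2 to 29.2 FPKM (adjusted p = 0.0185), all by limma. Chaf1a lies on chromosome 17, Chaf1b and Ubn1 on chromosome 16 and Dnajc9 on chromosome 14. The non-member genes of these chromosomes had medians of -0.37, -0.08 and -0.04. The part of the chromosome in these falls was not tested. The number called lower was 2 without Control S17 and 3 without Control S19 or iRhom1 KO S20. The calls of Chaf1b (without S17) and Dnajc9 (without S17, S19 or S20) were among those lost.

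Genes of DNA replication were mostly lower in iRhom1 KO. Of 53 in the fit, 25 were called lower and 1 higher, with a median of -0.32, beside 21.9% and 10.7% of all genes. Uhrf1, which maintains DNA methylation after replication, fell from 37.1 ± 1.51 to 19.6 ± 0.272 FPKM (SD, n = 2; adjusted p = 0.00503 by limma). Mcm7 of the replicative helicase fell from 66.6 to 37.9 FPKM (adjusted p = 0.00587), Pcna, the sliding clamp, from 179.7 to 115 FPKM (adjusted p = 0.0061), and the loading factor Cdc6 from 8.57 to 4.96 FPKM (adjusted p = 0.00698), all by limma. Uhrf1 lies on chromosome 17, Mcm7 on chromosome 5, Pcna on chromosome 2 and Cdc6 on chromosome 11. The non-member genes of these chromosomes had medians of -0.37, -0.23, -0.07 and -0.08. The part of the chromosome in these falls was not tested. Rpa3, the smallest subunit of the single-strand binding protein, was the 1 gene called higher (40.2 to 51.8 FPKM, adjusted p = 0.0286 by limma), a call lost without S17, S19 or S18. The number called lower ranged from 13 without Control S17 to 22 without iRhom1 KO S18, and was 15 without Control S19.

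Mitosis genes were split. Of 24 in the fit, 2 were called higher and 5 lower, with a median of -0.09, beside 10.7% and 21.9% of all genes. Under trimmed mean scaling the counts turned to 5 higher and 1 lower. Ccnb2 rose from 53.1 to 74.9 FPKM (adjusted p = 0.0108 by limma) and Ccnb1, the other B-type cyclin, fell from 42.1 to 29.1 FPKM (adjusted p = 0.0108 by limma). Bub1b, a spindle checkpoint kinase, rose from 34.6 to 44.2 FPKM (adjusted p = 0.0204 by limma), lost without any 1 library. Cdk1 (51.4 to 41.5 FPKM, adjusted p = 0.0307 by limma), Plk1 (20.4 to 15.4 FPKM, adjusted p = 0.029 by limma) and Hmmr (45.8 to 37.4 FPKM, adjusted p = 0.0466 by limma) fell, and each lost its call under trimmed mean scaling. Ccnb1 lies on chromosome 13, Plk1 on chromosome 5, Cdk1 on chromosome 10 and Hmmr on chromosome 11. The non-member genes of these chromosomes had medians of -0.38, -0.23, -0.04 and -0.08. The part of the chromosome in these falls was not tested. The number called lower was 1 without either Control library and 2 without iRhom1 KO S20.

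**Figure D5:**
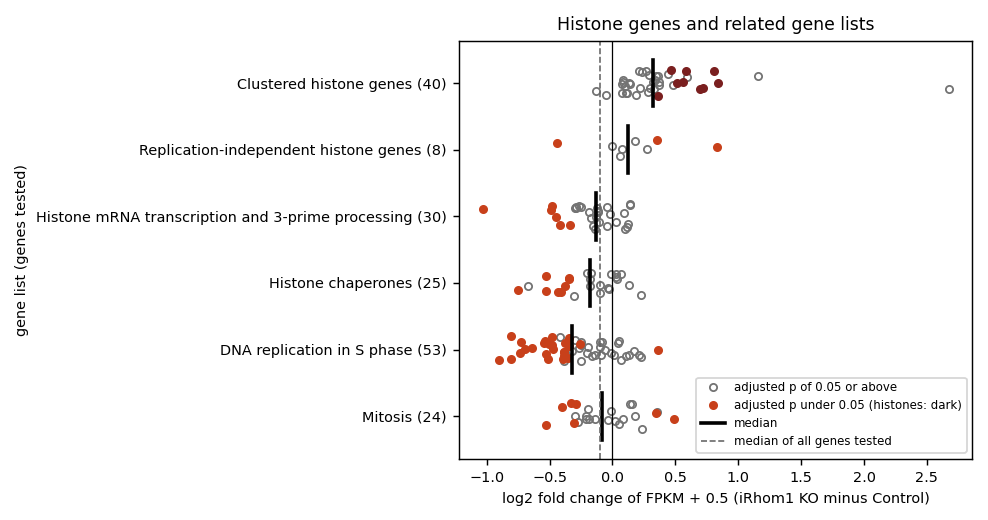
Log2 difference of FPKM + 0.5 (iRhom1 KO minus Control) of each gene in the fit, by gene list, with filled points for an adjusted p under 0.05, a black line at each list's median and a dashed line at the median of all genes (-0.10); vertical scatter within a list has no meaning. The histone genes have a median of 0.33, while replication genes centre on -0.32, and the lists of histone mRNA processing (-0.13), chaperones (-0.18) and mitosis (-0.09) lie close to all genes.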

How the data were processed

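CT26 cells, with 2 Control and 2 iRhom1 KO libraries, were analysed as bulk RNA-seq. Per the labels, the authors aligned reads to GRCm38 and quantified them with HISAT2 and StringTie (versions not given in the sources used here), and deposited 1 table of FPKM per gene and library, with columns of their own fold change, which were not used. The sources used here name no further scaling. Of the table, 19 rows lacked a gene name and were not used, and rows of 26 shared symbols were summed, none of them a histone gene. Counts per gene are not known; depth was estimated from the steps of low FPKM of single-exon genes, and limits mainly H1F1, H1F6 and H2AC1.

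Genes that reached a mean of 1 FPKM in either group were fitted on log2(FPKM + 0.5) with limma 3.58.1 in R 4.3.3 (trend, no robust fitting) and adjusted by Benjamini-Hochberg over 10271 genes at 0.05; the code was tested on simulated data. The added 0.5 understates changes of low genes. With 2 libraries a group an exact permutation test cannot go below a two-sided p of 0.333, so none is given. The members and all gene lists were chosen with earlier results of these data known. Genes named were, per class, the 4 members of highest level, the 5 highest and 5 lowest differences, all members outside Hist1, the members next to the 1 FPKM level, up to 4 called genes per list and direction with the smallest p, every tested variant histone gene, and Slbp, Npat, Lsm10, Lsm11, Casp8ap2 and Zfp473. Positions, transcripts and stem-loops come from GENCODE M21 and promoters from RefSeq (GRCm38.p6), and protein groups from translating the annotated coding sequences with Python 3.11.15. Alternatives covered pseudocounts of 0.1 and 1, 3 other filters, 2 scalings, robust fitting, taking the highest instead of the sum of rows with 1 symbol, and leaving out each library.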

Additional observations from a re-analysis of the deposited data

How the results depend on the processing

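The number of members called higher (9) was 4 with no filter on low values and 14 under trimmed mean scaling, which moved the median of all genes from -0.10 to 0.00 and the share of higher calls over all genes from 32.7% to 50.9% (quantile normalization: 50.8%). Leaving out 1 library each gave 4 to 16 members, and the median member difference then ranged from 0.23 to 0.43. That median was 0.66 relative to the other genes of the chromosome, and 0.28 over members with under 50% of 50-base stretches shared and 0.31 without HIST1H2BQ and H2BC9, both chosen after seeing the data. Over all genes, 1096 were called higher and 2254 lower; 727 were higher with a minimum of 5 FPKM and 1684 under trimmed mean scaling, and 561 to 745 were higher and 1096 to 1713 lower with 1 library left out. With 1 library left out, variant histone genes had 1 to 2 higher and 0 to 1 lower, histone mRNA genes 2 to 6 lower, chaperones 2 to 9 lower, replication genes 0 to 2 higher and 13 to 22 lower, and mitosis genes 1 higher and 1 to 4 lower. Under trimmed mean scaling and quantile normalization, respectively, 1 and 1 chaperones, 2 and 3 replication genes and 5 and 4 mitosis genes were higher, and 1 and 1 mitosis genes lower; with no filter, 0 replication genes were higher and 1 mitosis gene was lower. A fit with 1 library in a group takes its spread from the other group. The causes of these changes were not tested. No paired analysis was possible because the columns carry library tags and not the replicate numbers of the labels.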
